A study of Homo sapiens with 20 samples.

Results

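Of the 36603 regions that POU2AF1 bound in DMSO-treated MM1.S myeloma cells, 2515 (6.87%) were also bound in 7 further DMSO lists, which cover both myeloma lines and both small cell lung cancer lines. These common sites were chosen by the peak calls of 8 DMSO lists. A site is a region of the MM1.S POU2AF1 list on chromosomes 1 to 22 or X that shares 1 base or more with a region of each of the other 7 lists (IRF4 in MM1.S cells, POU2AF1 and IRF4 in NCI-H929 cells, POU2F3 in NCI-H1048 cells, and POU2F3, HA-tagged POU2F3 and HA-tagged POU2AF2 in NCI-H526 cells). The rule used no AU-15330 library, no annotation and no sequence. Most of the common sites (88.1%) lay at promoters of protein-coding genes, those of splicing factors and ribosomal proteins among them, further sites lay at small nuclear RNA genes, and none lay at the start of a defining tuft cell or plasma cell gene. With AU-15330, 98.2% of them kept POU2F3 in NCI-H1048 cells (44.6% over the whole list). In NCI-H526 cells 45.0% kept POU2F3 and 59.6% kept HA-POU2F3 (16.7% and 14.6% over the whole lists). HA-POU2F3 of NCI-H1048 cells, which the rule did not use, was kept at 35.3% of the 1129 common sites it bound (7.72% over the whole list). POU2AF1 was kept at 93.2% in both myeloma lines (33.7% over the whole list in MM1.S and 38.4% in NCI-H929 cells). IRF4 was kept at 32.9% in MM1.S cells (9.76% over the whole list) and at 5.49% in NCI-H929 cells (0.887% over the whole list). HA-POU2AF2, the pair most limited by depth, was kept at 4.57% in NCI-H526 cells (1.25% over the whole list).

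POU2F3 is the POU domain factor that defines tuft cells and the tuft cell-like subtype of small cell lung cancer (SCLC-P). POU domain factors of the POU2F family recognise the octamer, ATTTGCAT, and the coactivators POU2AF1 (in B and plasma cells) and POU2AF2 (in tuft cells) bind DNA together with them. IRF4 is a lymphoid factor on which myeloma cells depend, and it recognises sequences with repeated GAAA. The mSWI/SNF complexes slide and evict nucleosomes with the energy of their ATPases, SMARCA2 or SMARCA4. AU-15330 is a PROTAC, a molecule that brings both ATPases to a ubiquitin ligase so that they are degraded.

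ChIP-seq was carried out in 4 established human lines, MM1.S and NCI-H929 from multiple myeloma and NCI-H526 and NCI-H1048 from SCLC-P, each treated with AU-15330 (1 µM, for 4 to 6 h by the labels) or with its solvent DMSO. HA-POU2F3 and HA-POU2AF2 are dTAG fusions carried by lentivirus in cells whose own gene was knocked out, so an HA pair differs from a POU2F3 antibody pair in cells as well as in antibody. A pair of NCI-H1048 HA-POU2F3 libraries and a pair of NCI-H1048 HA libraries with no tagged protein named (both AU-15330 libraries at 6 h) took no part in the rule. The study describes HA-tagged POU2AF3 as well as HA-POU2F3 in this line, but the labels do not tie either to the unnamed pair. With 1 library for each condition, treatments were compared without replicates and without a test, and the exact 95% intervals given cover counting error only. The 20 lists held 1326 to 89850 regions. Depth was read from the background pileup, the number of reads stacked over an average position, which was 1.21 to 4.03 in the 18 lists where it could be recovered. The lists carried marks of their tissues, though not exclusively. A region lay within 1 kb of the start of all 7 tuft cell markers (POU2F3, POU2AF2, AVIL, PTGS1, ASCL2, GFI1B and TRPM5) in the NCI-H526 POU2F3 list. The same held for all 7 plasma cell markers (IRF4, PRDM1, XBP1, SDC1, TNFRSF17, CD38 and POU2AF1) in the MM1.S POU2AF1 list. Over the lists of the rule, tuft cell markers with a region numbered 4 to 7 in SCLC-P lists and 2 to 4 in myeloma lists. Plasma cell markers numbered 6 to 7 in myeloma lists and 1 to 3 in SCLC-P lists. Among the common sites the count was 0 of 7 for either set.

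The common sites were of several kinds, and the sequences below show one or more of each, read from the hg38 reference. The first 4 are among the 5 common sites with the highest rank (by mean percentile of fold enrichment over the 8 lists) among those with an octamer within 100 bases of the summit. The next is an octamer site lost with AU-15330 in every pair, with a tandem octamer. Then follow the stretches upstream of the small nuclear RNA genes RNU5A-1 and RNU5B-1, a pair of promoters with no octamer, and a repeat on chromosome 4 that kept every protein. Capitals mark the octamer (ATTTGCAT, or ATGCAAAT when read on the other strand), the ETS motif (CCGGAAG or its complement) in the promoters of SLX9 and RPS3A, and copies of CATTC in the repeat.
CABLES2 promoter, chr20:62407314-62407421, plus strand: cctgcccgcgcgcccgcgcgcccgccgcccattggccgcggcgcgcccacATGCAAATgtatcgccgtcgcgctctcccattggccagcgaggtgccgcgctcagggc
Intergenic near SNU13 (summit 15831 bp from its start), chr22:41666661-41666768, plus strand: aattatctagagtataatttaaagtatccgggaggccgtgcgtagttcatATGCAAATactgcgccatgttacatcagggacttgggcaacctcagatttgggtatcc
Intergenic near FIBIN (summit −78922 bp from its start), chr11:26915152-26915259, plus strand: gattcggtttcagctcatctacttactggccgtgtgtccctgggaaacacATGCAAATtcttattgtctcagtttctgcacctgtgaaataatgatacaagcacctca
ZNF428 promoter, chr19:43619884-43619991, plus strand: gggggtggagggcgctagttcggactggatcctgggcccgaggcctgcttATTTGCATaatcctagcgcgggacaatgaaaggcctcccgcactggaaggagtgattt
Intergenic near KBTBD8 (summit 32384 bp from its start), chr3:67031278-67031385, plus strand: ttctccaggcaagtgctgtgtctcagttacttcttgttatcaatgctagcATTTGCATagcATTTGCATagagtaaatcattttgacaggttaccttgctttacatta
Upstream of RNU5A-1, chr15:65295799-65295905, plus strand: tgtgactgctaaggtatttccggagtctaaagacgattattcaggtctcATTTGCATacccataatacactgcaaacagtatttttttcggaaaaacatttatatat
Upstream of RNU5B-1, chr15:65304416-65304522, plus strand: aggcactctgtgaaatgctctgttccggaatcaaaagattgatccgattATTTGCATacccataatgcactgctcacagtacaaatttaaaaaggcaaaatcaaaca
SLX9 promoter, chr21:44939891-44939998, plus strand: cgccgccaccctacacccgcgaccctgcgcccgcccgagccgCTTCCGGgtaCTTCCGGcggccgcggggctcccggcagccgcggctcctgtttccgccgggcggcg
RPS3A promoter, chr4:151099485-151099592, plus strand: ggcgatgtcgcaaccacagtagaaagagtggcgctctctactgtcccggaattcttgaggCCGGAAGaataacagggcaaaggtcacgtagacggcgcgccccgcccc
Repeat on chromosome 4, chr4:49149374-49149494, plus strand: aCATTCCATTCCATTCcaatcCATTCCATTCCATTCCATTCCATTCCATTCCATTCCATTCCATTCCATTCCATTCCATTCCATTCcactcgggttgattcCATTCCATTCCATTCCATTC

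Requiring each list in turn left 17844 regions after MM1.S IRF4, 11056 after NCI-H929 POU2AF1, 10708 after NCI-H929 IRF4 and 6544 after NCI-H526 POU2F3. The HA-POU2F3 list of that line left 5152, its HA-POU2AF2 list left 3556, and NCI-H1048 POU2F3 left 2515. A further 3070 regions missed 1 list, which was NCI-H1048 POU2F3 for 1041 of them, NCI-H526 HA-POU2AF2 for 985 and MM1.S IRF4 for 583. At the edge of the rule, 72 common sites overlapped at least 1 list by under 50 bases (the smallest by 2 bases), and 135 of the regions that missed 1 list lay under 200 bases from a region of it. The count depends on the calling, with 815 sites at a −log10 q of at least 5 in each list and 469 where at least 50% of the MM1.S POU2AF1 region had to be covered.

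The share of MM1.S POU2AF1 regions at promoters, taken as a summit within 1 kb of the transcription start site (TSS) of a protein-coding gene, was higher the more lists shared the region. It was 88.1% (86.7 to 89.3) at the common sites and 84.6% at the regions that missed 1 list, against 7.25% at the 8577 regions shared with no other list. The other 34088 regions together had 29.4% at promoters (29.0 to 29.9). Of the 300 common sites off promoters, 15 were in exons, 78 in introns and 207 between genes. The common sites were also wider, with a median of 749 bp against 486 bp at other promoter regions of the list, and stronger, with a median level (the pileup at the summit divided by that library's background pileup) of 17.4 against 11.1. Since the rule asks for a call in 8 lists, strong regions are favoured by it. The stated peak calling names no input library, so the part of signal unrelated to the proteins at the common sites was not tested.

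**Figure D1:**
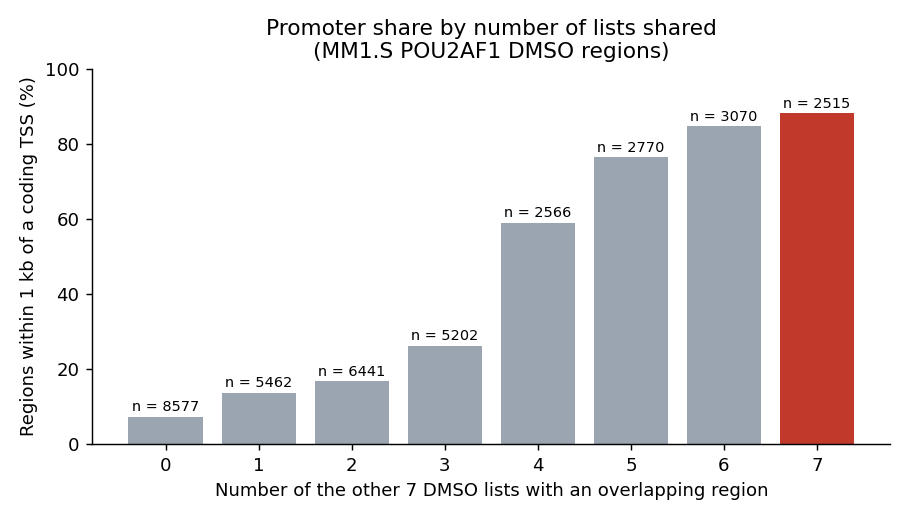
Share of MM1.S POU2AF1 regions of DMSO-treated cells within 1 kb of a protein-coding TSS (y axis, %) by the number of the other 7 DMSO lists with an overlapping region (x axis), with the number of regions above each bar. The common sites, at 7 lists, are the red bar at 88.1%, against 7.25% for regions shared with no other list.

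Summits at the 2215 promoter sites sat on the TSS. The median distance was −8 bp for MM1.S POU2AF1 (quartiles −106 and 56 bp, negative upstream), −48 bp for NCI-H526 POU2F3 and −31 bp for NCI-H1048 POU2F3, with the other lists between −24 and 11 bp. Coding genes started on both strands within 1 kb at 15.4% of the promoter sites and at 11.2% of other promoter regions. Off coding promoters, 122 of the 300 sites (40.7%, 35.1 to 46.5) lay within 1 kb of the start of a non-coding RNA gene, against 6.41% of other regions off promoters. This left 178 distal sites (7.08%), over 1 kb from any of these starts, where other regions of the list had 66.0%. Relative to the number of protein-coding genes, common sites were sparsest on chromosome X (15 sites, 1.75 per 100 genes) and densest on chromosome 7 (174 sites, 18.7 per 100 genes).

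A common site lay within 1 kb of a TSS of 2579 of the 19962 protein-coding genes, which is 12.9% and is the background for each gene list. Among genes that every cell uses, the share was 18 of 33 for mRNA splicing factors (SF3B1, SRSF1, SRSF2 and HNRNPK among them), 32 of 84 for ribosomal proteins (RPLP0, RPS3A), and 14 of 48 for the proteasome. It was 11 of 37 for mitochondrial complex I, 10 of 34 for general transcription factors and RNA polymerase II subunits (POLR2A, GTF2B), 20 of 78 for mitochondrial ribosomal proteins and 17 of 69 for replication-dependent histones. The immediate early genes, which answer signals within minutes, had 9 of 25 (ATF3, FOS, FOSL2, IER5, JUND, KLF4, KLF6, MCL1 and SRF). The mSWI/SNF subunits themselves had 9 of 28, namely ACTL6A, ARID1A, ARID2, BCL7B, BRD9, PBRM1, SMARCC1, SMARCD2 and SMARCE1.

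Lists of genes of single tissues were at or under the background share. The tuft cell list had 1 of 34 (IL17RB, a receptor for IL-25) and the plasma cell list 1 of 26 (POU2F2, the B cell octamer factor). The neuroendocrine list had 2 of 21 (NCAM1 and UCHL1), and T cell, hepatocyte and olfactory receptor lists had 0 of 13, 0 of 12 and 0 of 400. C2H2 zinc finger ZNF genes, at 64 of 476, were close to the background. Of the 15 POU2F and IRF factor genes, POU2F1, the octamer factor of most cells, and POU2F2 had a common site.

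The sequence at the common sites was that of CpG-rich promoters. Within 100 bases of the MM1.S POU2AF1 summit the median GC content was 69.7% at common sites and 68.7% at other promoter regions, against 50.2% over all other regions. The Sp/KLF pattern GGGCGGG was present at 37.9% of common sites and 36.1% of other promoter regions, and the NFY pattern (GCCAATC or GCCAATG) at 7.40% and 7.19%. The ETS pattern CCGGAAG was at 16.8% of the common sites at coding promoters, 10.8% of other promoter regions and 0.578% of windows 2 kb to either side of the common sites. The YY1 pattern AAGATGGCG was at 3.52% and 2.29% of these promoter sets, the NRF1 pattern GCGCATGCG at 1.72% and 1.22%, and the octamer ATTTGCAT at 2.75% and 1.23%. The IRF pattern GAAANNGAA was at 3.50% of common sites (2.82 to 4.29), close to the 3.98% of other promoter regions. Both shares were below the 10.6% of all other regions and the 6.07% of the flanking windows, whose median GC content was 44.3%.

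The octamer core TTTGCAT separated the common sites from the remaining SCLC-P binding sites. At the summits of the NCI-H526 POU2F3 list it was present at 9.53% of regions at common sites, against 48.1% of the other regions. HA-POU2F3 (8.44% against 36.9%), HA-POU2AF2 (7.95% against 49.4%) and NCI-H1048 POU2F3 (8.74% against 47.1%) showed the same order. Set beside other promoter regions of these lists, which had 8.11% to 11.0%, the common sites were close. For POU2AF1 in MM1.S cells the core was at 5.96% of common sites, 2.49% of other promoter regions and 7.39% of all other regions.

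**Figure D2:**
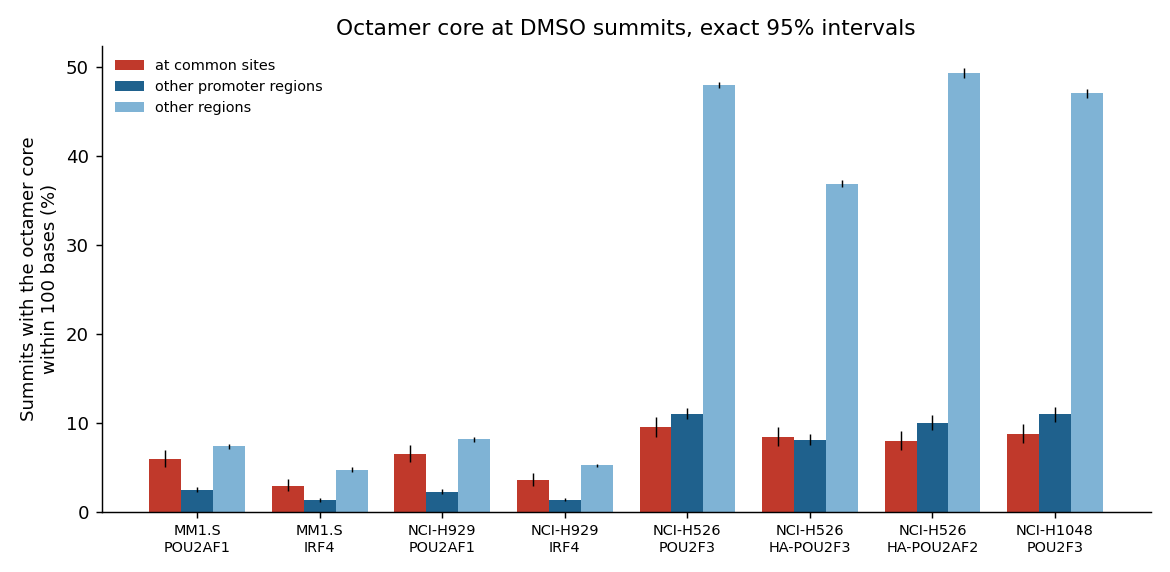
Share of DMSO summits with the octamer core TTTGCAT on either strand within 100 bases (y axis, %, with exact 95% intervals) for each of the 8 lists (x axis), at common sites, at other promoter regions and at all other regions. In the 4 SCLC-P lists the common sites stand at 7.95% to 9.53%, near other promoter regions and far under the 36.9% to 49.4% of all other regions.

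The 178 distal common sites were where the octamer was dense. The core was at 32.6% of them (58 sites), against 9.65% of the 22512 other distal regions of the MM1.S POU2AF1 list, 3.75% of the common sites at coding promoters and 3.30% of the flanking windows. The full octamer ATTTGCAT was at 24.7% of the distal sites and 5.71% of other distal regions. The rule also requires a region in each SCLC-P list, and other regions of those lists had the core at 36.9% to 49.4% of their own summits. The rule can thus bring in octamer sites. After leaving out sites of mostly repeated sequence (described with the sites retained in all pairs), 42 distal common sites had the octamer. Among their nearest coding genes were SLC8A1, LAMC1, MEF2B (a B cell factor), ETS1, FOXO3, NR4A1, BACH2 and VAV1.

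The share of the 2515 common sites kept with AU-15330 differed widely between proteins, and for POU2F3 between lines. A DMSO region was called retained where it shared 1 base or more with an AU-15330 region of that protein in that line. POU2AF1 was retained at 2344 common sites in each myeloma line (93.2%, 92.1 to 94.2), where 33.7% of the whole MM1.S list and 38.4% of the whole NCI-H929 list were retained. IRF4 was retained at 828 sites in MM1.S cells (32.9%, 31.1 to 34.8) with 9.76% over the whole list, and at 138 sites in NCI-H929 cells (5.49%, 4.63 to 6.45) with 0.887% over the whole list. In NCI-H526 cells POU2F3 was retained at 1132 sites (45.0%, 43.1 to 47.0), HA-POU2F3 at 1498 (59.6%, 57.6 to 61.5) and HA-POU2AF2 at 115 (4.57%, 3.79 to 5.46), with 16.7%, 14.6% and 1.25% of the whole lists in that order. In NCI-H1048 cells the POU2F3 antibody kept 2469 sites (98.2%, 97.6 to 98.7), with 44.6% over the whole list.

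The pairs that the rule did not use could be read at the common sites they bound. NCI-H1048 HA-POU2F3 had a DMSO region at 1129 common sites (44.9%, against 13.1% of other promoter regions), and 399 of these were retained (35.3%, 32.6 to 38.2), with 7.72% over the whole list. The NCI-H1048 HA pair of unnamed protein had one at 1137 sites (45.2%, against 14.5%), of which 95 were retained (8.36%, 6.81 to 10.1), with 1.94% over the whole list. Within NCI-H1048 cells the POU2F3 antibody and the HA-POU2F3 libraries thus gave 98.2% and 35.3%. Antibody, cells and library differ between these pairs and cannot be told apart.

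Retention at common sites was also higher than at other regions at promoters, and higher among the strongest regions. Position and strength were not matched together. Of NCI-H526 POU2F3 regions at promoters, 39.6% were retained at common sites and 18.5% elsewhere. For HA-POU2F3 in the same line these shares were 55.9% and 28.5%, and for MM1.S IRF4 they were 29.7% and 16.8%. Within the fifth of each list with the highest fold enrichment, all regions at common sites, at and off promoters together, were set against other promoter regions. The former were retained more often, with 71.5% against 53.4% for NCI-H526 POU2F3 and 76.9% against 56.0% for HA-POU2F3. The shares were 49.9% against 27.4% for MM1.S IRF4 and 96.7% against 87.4% for MM1.S POU2AF1. With each DMSO pileup scaled to the background of the AU-15330 library, 97.7% to 100% of common sites would reach that list's weakest called p-value in 7 of the 8 pairs. Other regions of those 7 lists had 88.1% to 100%. The exception was HA-POU2AF2, with 68.8% of common sites, whose background pileup was 1.21 with AU-15330 and 3.49 with DMSO. The scaling holds no counting noise and makes no allowance for the sites having been chosen by their DMSO calls. The part of depth and calling in the retained shares was thus not tested.

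**Figure D3:**
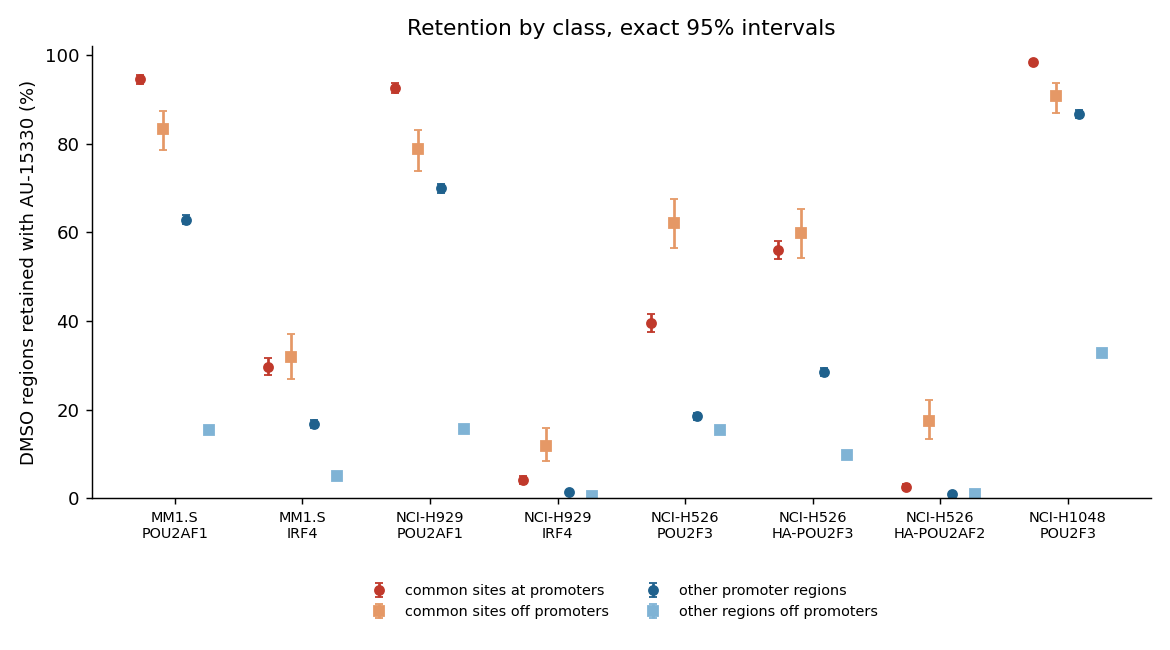
Share of DMSO regions retained with AU-15330 (y axis, %, with exact 95% intervals) for each line and protein (x axis), for regions at common sites at and off promoters and for other regions of the same DMSO list at and off promoters. For NCI-H526 HA-POU2AF2 the common sites at promoters stand at 2.59% and those off promoters at 17.4%.

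The smaller shares depend on how a retained region is called. With an AU-15330 region of −log10 q of at least 5, 9.70% of common sites kept IRF4 in MM1.S cells, 1.87% kept it in NCI-H929 cells, and 28.6%, 35.1% and 2.31% kept POU2F3, HA-POU2F3 and HA-POU2AF2 in NCI-H526 cells. Where both lists of a pair were cut to equal numbers of their strongest regions, fewer common sites were left to read. MM1.S IRF4 was then retained at 199 of 398 sites (50%) and NCI-H929 IRF4 at 9 of 26 (34.6%, 17.2 to 55.7). NCI-H526 POU2F3 was retained at 481 of 674 (71.4%), HA-POU2F3 at 657 of 896 (73.3%) and HA-POU2AF2 at 53 of 197 (26.9%, 20.8 to 33.7).

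Where common sites were retained, the median ratio of the AU-15330 level over the DMSO level was below 1 in 7 of the 8 pairs. It was 0.69 for HA-POU2F3 in NCI-H526 cells (lower at 89.1% of retained sites), 0.72 for HA-POU2AF2 and 0.74 for POU2F3. With the pileup not divided by the background, the ratio was 0.25 for HA-POU2AF2 and 0.37 for POU2F3, whose background pileup was 2.02 with AU-15330 and 4.03 with DMSO. In the myeloma lines it was 0.79 for MM1.S POU2AF1, 0.75 for MM1.S IRF4, 0.44 for NCI-H929 IRF4 and 0.96 for NCI-H929 POU2AF1, which was lower at 55.7% of its sites. NCI-H1048 POU2F3 went the other way. There the median level was 21.4 with AU-15330 and 9.27 with DMSO, the median ratio was 2.24 (quartiles 1.68 and 2.80), and 97 of 2461 sites (3.94%) were lower. In the same line, HA-POU2F3 had a median ratio of 0.84 over 399 retained sites. The higher POU2F3 antibody level of NCI-H1048 cells was shared by other promoters, with a ratio of 2.04 over 4432 retained regions, whereas other regions off promoters had 0.82.

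Of the promoter sites, POLR2A, which encodes the largest subunit of RNA polymerase II (chr17:7483731-7485031), was retained in 7 pairs. POU2AF1 had a level of 51.0 with AU-15330 and 45.0 with DMSO in MM1.S cells, and 25.5 with AU-15330 and 41.9 with DMSO in NCI-H929 cells. IRF4 had 7.90 and 12.3 in MM1.S cells, and in NCI-H929 cells it had no region with AU-15330 and 25.8 with DMSO. In NCI-H526 cells the levels with AU-15330 and DMSO were 34.6 and 58.0 for POU2F3, 55.5 and 86.1 for HA-POU2F3, while HA-POU2AF2 had 16.5 and 22.1. NCI-H1048 POU2F3 had 111 with AU-15330 and 71.5 with DMSO. The level was thus higher with AU-15330 in MM1.S POU2AF1 and NCI-H1048 POU2F3 and lower in the other 5 pairs that had a region in both treatments.

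SMARCD2, which encodes a subunit of the mSWI/SNF complexes themselves (chr17:63842492-63843542), was retained in every myeloma pair but lost in every NCI-H526 pair. POU2AF1 had 43.8 with AU-15330 and 53.0 with DMSO in MM1.S cells, and 34.8 and 49.2 in NCI-H929 cells. IRF4 had 8.34 and 19.2 in MM1.S cells and 6.27 and 33.9 in NCI-H929 cells. The NCI-H526 regions with DMSO had levels of 13.9 (POU2F3), 23.7 (HA-POU2F3) and 10.9 (HA-POU2AF2), and no region was called there with AU-15330. NCI-H1048 POU2F3 had 32.9 and 27.4. Over the sites of all 9 subunits, POU2AF1 in either myeloma line and NCI-H1048 POU2F3 were retained at 9, MM1.S IRF4 at 4, HA-POU2F3 at 3, NCI-H929 IRF4 at 2, and NCI-H526 POU2F3 and HA-POU2AF2 at 0. Over all common sites these shares were 93.2% for POU2AF1, 98.2% for NCI-H1048 POU2F3, 32.9% for MM1.S IRF4, 59.6% for HA-POU2F3, 5.49% for NCI-H929 IRF4, 45.0% for NCI-H526 POU2F3 and 4.57% for HA-POU2AF2.

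The immediate early sites kept POU2AF1 at 9 of 9 in MM1.S cells and 8 of 9 in NCI-H929 cells, and kept IRF4 at 0 of 9 in either line, where the shares over all common sites were 93.2% for POU2AF1 in both lines and 32.9% and 5.49% for IRF4 in MM1.S and NCI-H929 cells. NCI-H526 POU2F3 was retained at 3, HA-POU2F3 at 4 and HA-POU2AF2 at 1 (IER5), where the shares over all common sites were 45.0%, 59.6% and 4.57%. At FOS (chr14:75278551-75279332), which encodes an AP-1 subunit, POU2AF1 had 10.8 with AU-15330 and 15.6 with DMSO in MM1.S cells and 15.7 and 15.4 in NCI-H929 cells, and NCI-H1048 POU2F3 had 25.4 and 9.71. The other 5 FOS pairs had DMSO levels of 6.38 to 14.7 and no region with AU-15330. The 18 splicing factor sites kept POU2AF1 at 18 in both lines, IRF4 at 5 in MM1.S cells and 0 in NCI-H929 cells, and NCI-H1048 POU2F3 at 18. In NCI-H526 cells they kept POU2F3 at 8, HA-POU2F3 at 13 and HA-POU2AF2 at 1. These are small counts beside the shares over all common sites. Those were 93.2% for POU2AF1 in both lines, and 32.9% in MM1.S and 5.49% in NCI-H929 cells for IRF4. For POU2F3 they were 98.2% in NCI-H1048 and 45.0% in NCI-H526 cells, with 59.6% for HA-POU2F3 and 4.57% for HA-POU2AF2.

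The sites at the octamer factor genes POU2F2 and POU2F1 differed from each other in SCLC-P cells. At POU2F2 (chr19:42176763-42177302), NCI-H526 POU2F3 had 7.41 with AU-15330 and 38.2 with DMSO, HA-POU2F3 had 6.88 and 32.1, and HA-POU2AF2 had no region and 24.9. NCI-H1048 POU2F3 had 16.5 with AU-15330 and 48.1 with DMSO, where the median ratio of this pair at common sites of coding promoters was 2.28. At POU2F1 (chr1:167219883-167221182) NCI-H1048 POU2F3 had 119 and 52.1, NCI-H526 POU2F3 had 30.1 and 42.9, and HA-POU2F3 had 24.5 and 81.5. The site at the tuft cell gene IL17RB (chr3:53845640-53846474), whose summit was nearer to the start of CHDH, kept NCI-H1048 POU2F3 (13.8 and 9.71) and lost the other 7 pairs, whose DMSO levels were 5.14 to 11.6.

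Small nuclear RNA (snRNA) genes, whose transcripts form the core of the spliceosome, were prominent among the strongest common sites. Off coding promoters, 18 common sites lay within 1 kb of an annotated snRNA start, 14.8% of the common sites at non-coding starts against 2.85% of the other such regions. They comprised U1 genes and variants (RNU1-1, RNU1-2 and 6 RNVU1 genes), U5 genes (RNU5A-1, RNU5B-1, RNU5D-1, RNU5E-1 and RNU5E-6P), U4 genes, and single U2 (RNU2-63P), U6 and U4atac genes. By their symbols RNU5E-6P and RNU2-63P are pseudogenes. Several of these genes have near-identical copies, so reads may be shared between them, and RNVU1-14, RNU1-1 and RNU1-2 were over 50% repeated by the measure given with the sites retained in all pairs. The median number of pairs in which they were retained was 6.5, against 4 over all common sites. HA-POU2AF2, retained at 4.57% of all common sites, was retained at 17 of 18. POU2F3 and HA-POU2F3 of NCI-H526 cells were retained at 18 of 18, against 45.0% and 59.6% over all common sites. IRF4 was retained at 10 in MM1.S cells and 2 in NCI-H929 cells, against 32.9% and 5.49%. POU2AF1 was retained at 18 in MM1.S cells and 16 in NCI-H929 cells, near its 93.2% over all common sites in both lines. NCI-H1048 POU2F3 was retained at 18, near its 98.2%. The snRNA sites were also stronger, with a median HA-POU2AF2 level with DMSO of 54.6 against 7.45 over all common sites. The part of this strength in their retention was not tested.

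At RNU5A-1 (site chr15:65295834-65296918), whose upstream octamer is printed above, POU2AF1 had 48.9 with AU-15330 and 76.7 with DMSO in MM1.S cells and 33.8 and 71.5 in NCI-H929 cells. IRF4 had 7.02 and 15.96 in MM1.S cells, and no region and 25.8 in NCI-H929 cells. In NCI-H526 cells POU2F3 had 20.2 and 43.9, its HA-tagged form had 32.7 and 76.8, and HA-POU2AF2 had 33.1 and 67.6. NCI-H1048 POU2F3 had 67.5 with AU-15330 and 27.8 with DMSO. Of the 7 pairs with a region in both treatments, the level was lower with AU-15330 in the 6 other than NCI-H1048 POU2F3.

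The position of the summits at these 18 genes differed between antibodies. The POU2F3 antibody summits lay upstream of the gene start, at a median of −148 bp in NCI-H526 cells (14 of 18 upstream) and −159 bp in NCI-H1048 cells (16 of 18). Both POU2AF1 and both IRF4 lists had their summits past the start, at medians of 177 to 261 bp (1 or 2 of 18 upstream). The HA libraries of NCI-H526 cells also had most of their summits past the start. Their medians were 112 bp for HA-POU2F3 (3 of 18 upstream) and 121 bp for HA-POU2AF2 (0 of 18). The octamer core was within 300 bp upstream of 8 of the 18 genes (44.4%, 21.5 to 69.2) and of 8.79% of the other 1866 annotated snRNA genes and pseudogenes, and its median start was at −218 bp. None of the 8 U1 genes and variants had the core there.

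**Figure D4:**
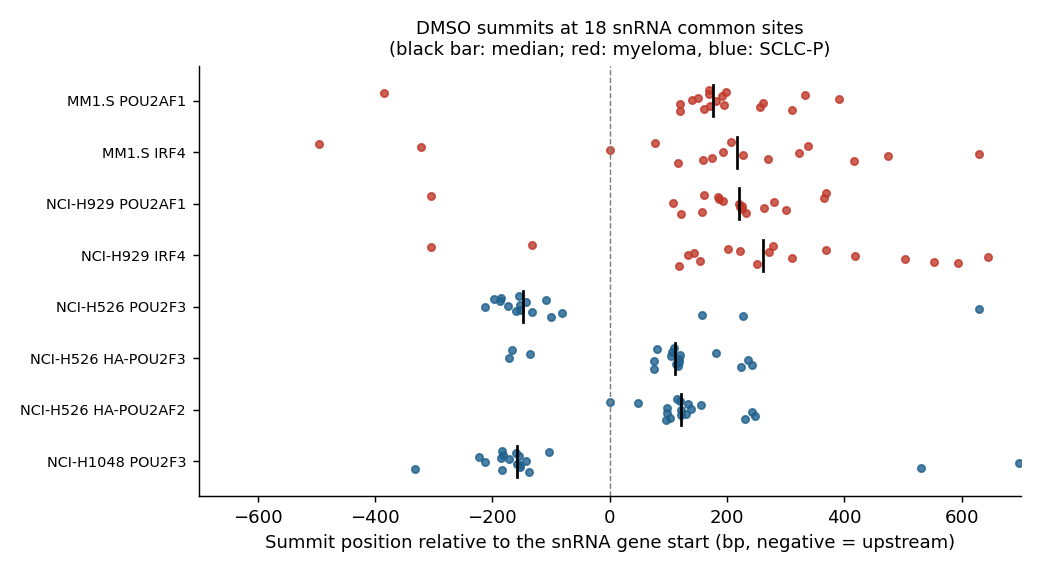
Position of each DMSO summit relative to the snRNA gene start (x axis, bp, negative upstream) in each list (y axis), with 1 point for each of the 18 snRNA genes, myeloma lists in red, SCLC-P lists in blue and the median as a black bar. The POU2F3 antibody medians stand at −148 and −159 bp and the medians of the other 6 lists at 112 to 261 bp, with 4 summits beyond 700 bp not drawn.

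The distal octamer sites had another pattern. Of the 42 distal sites with the octamer off repeated sequence, POU2F3 was retained at 32 in NCI-H526 cells (76.2%, 60.5 to 87.9) and at 31 in NCI-H1048 cells (73.8%), HA-POU2F3 at 16 (38.1%) and HA-POU2AF2 at 2 (4.76%). Over all common sites the shares in that order were 45.0%, 98.2%, 59.6% and 4.57%, so HA-POU2AF2 was close to its own. POU2AF1 was retained at 24 in MM1.S cells (57.1%, 41.0 to 72.3) and 19 in NCI-H929 cells (45.2%), and IRF4 at 2 and at 0. Over all common sites POU2AF1 had 93.2% in both lines, and IRF4 had 32.9% in MM1.S and 5.49% in NCI-H929 cells. Relative to the common sites at coding promoters, NCI-H526 POU2F3 was retained more often there (76.2% against 42.4%) and POU2AF1 less often (57.1% against 94.5% in MM1.S cells). All distal common sites off repeated sequence, with or without the octamer, lay between, at 63.1% for NCI-H526 POU2F3 and 72.0% for MM1.S POU2AF1. They had 66.9% for NCI-H929 POU2AF1 and 21.7% for MM1.S IRF4. The parts of distal position and of the octamer were not tested. The NCI-H526 POU2F3 regions at the distal octamer sites were also stronger with DMSO than at coding promoters, with a median level of 20.9 against 9.17. In that list regions at common sites were retained at 71.5% in the fifth with the highest fold enrichment and at 15.2% in the fifth with the lowest. The NCI-H1048 POU2F3 ratio of AU-15330 over DMSO was 0.97 at the 31 retained sites, where common sites at coding promoters had 2.28. Sites with the octamer core in general kept NCI-H526 POU2F3 at 79.3% and MM1.S IRF4 at 18.7%, against 42.8% and 33.8% for common sites without it.

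Single distal octamer sites ranged from retained in most pairs to lost in every pair. The site near SNU13 (chr22:41666581-41667086), retained in all pairs but the IRF4 pairs, had 28.8 with AU-15330 and 36.1 with DMSO for POU2AF1 in MM1.S cells, and 30.4 and 29.96 in NCI-H929 cells. IRF4 had no region there with AU-15330, and DMSO levels of 14.6 in MM1.S cells and 14.7 in NCI-H929 cells. In NCI-H526 cells POU2F3 had 13.3 and 20.8, its HA-tagged form had 9.47 and 20.5, and HA-POU2AF2 had 9.93 and 12.3, while NCI-H1048 POU2F3 had 48.4 and 32.7. The site near FIBIN (chr11:26914899-26915483) was retained in 3 pairs, with 12.9 and 29.9 for MM1.S POU2AF1, 24.7 and 40.4 for NCI-H526 POU2F3, and 8.61 and 23.3 for HA-POU2F3. The site near KBTBD8 (chr3:67031148-67031504), with its tandem octamer, had no region with AU-15330 in any pair, and DMSO levels of 7.58 and 5.99 for POU2AF1 in MM1.S and NCI-H929 cells, 9.12 and 12.7 for IRF4, 20.8 for NCI-H526 POU2F3, 12.6 for HA-POU2F3, 6.59 for HA-POU2AF2 and 8.39 for NCI-H1048 POU2F3.

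A common site was retained in a median of 4 of the 8 pairs. The numbers retained in 0 to 8 pairs were 5, 25, 90, 499, 792, 725, 303, 53 and 23. The most frequent set was MM1.S POU2AF1, NCI-H929 POU2AF1 and NCI-H1048 POU2F3 without the others, at 400 sites (15.9%). All 5 sites lost in every pair were distal, 4 in introns and 1 between genes, and their nearest coding genes were CSMD1, MORC3, GRHL3 (an epithelial factor), TRIM2 and KBTBD8.

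None of the 23 sites retained in all 8 pairs was at a coding promoter, 4 were at non-coding starts (the U1 variants RNVU1-14 and RNVU1-29 among them) and 19 were distal. Most of them were repeated sequence. Over 50% of the 32-base words sampled from the site occurred more than once in the genome at 16 of the 23 sites (69.6%, 47.1 to 86.8), against 35 of all 2515 common sites (1.39%) and 3.17% of the other regions of the MM1.S POU2AF1 list. On chromosome 4, 8 of the 23 lay within 56905 bp (chr4:49092683-49149587), with a median of 59.6% of their bases in copies of CATTC, the unit of human satellite 2 and 3, as in the sequence printed above. The median over all common sites was 0. A pair lay at chr21:8228612-8228858 and chr21:8420054-8420572, over 2 Mb from the nearest coding gene.

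At these 23 sites the levels with AU-15330 were close to or above those with DMSO, with median ratios of 0.97 to 1.32 over the 8 pairs. The highest-ranked of all common sites, at the start of the non-coding gene FAM230C (chr13:18211857-18212245), was one of them. It had 78.8 with AU-15330 and 68.2 with DMSO for MM1.S POU2AF1, 69.8 and 85.3 for MM1.S IRF4, 110 and 89.4 for NCI-H929 POU2AF1, and 103 and 92.0 for NCI-H929 IRF4. In NCI-H526 cells it had 124 and 70.7 for POU2F3 and 112 and 117 for HA-POU2F3. HA-POU2AF2 had 190 and 80.8, and NCI-H1048 POU2F3 had 85.3 and 98.4. As for all common sites, no input library is named against which these could be set, and the part of read mapping in them was not tested. Without the 35 sites of mostly repeated sequence, HA-POU2AF2 was retained at 3.71% of common sites and NCI-H929 IRF4 at 4.60%, and the other 6 pairs stayed within their intervals.

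**Figure D5:**
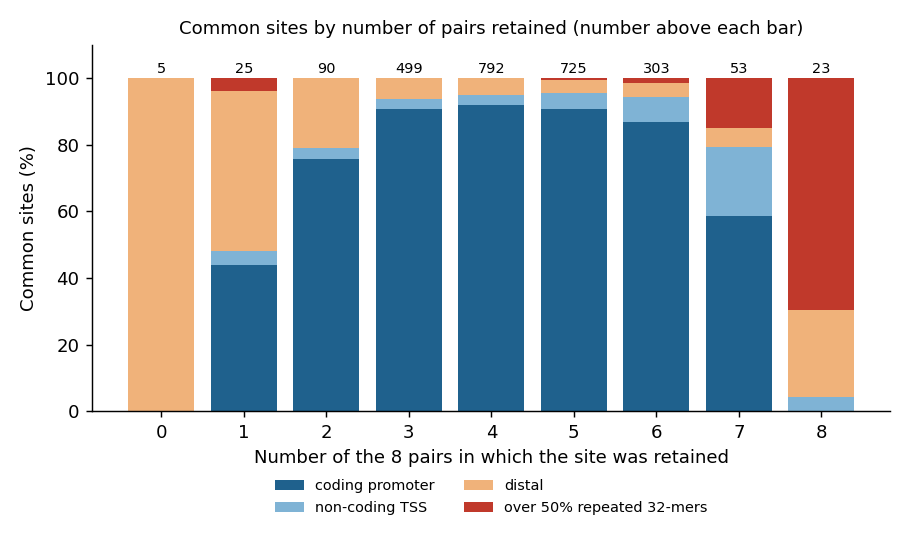
Composition of the common sites (y axis, % of sites) by the number of the 8 pairs in which they were retained with AU-15330 (x axis), with the number of sites above each bar. Coding promoters make up most sites retained in 2 to 7 pairs and none of those retained in 0 or 8, and sites with over 50% repeated 32-base words make up 16 of the 23 retained in 8.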

How the data were processed

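ChIP-seq peak lists of 20 libraries, 10 pairs of AU-15330 and DMSO, were used. Per the labels and methods, the authors used Trimmomatic (0.39) for read trimming, aligned to GRCh38/hg38 with BWA (0.7.17-r1198-dirty), filtered with SAMtools (1.9), removed duplicates with Picard, called peaks per library with MACS2 (2.1.1.20160309, q-value threshold 0.05, no control named) and removed blacklisted regions. The deposited values are the fold enrichment of the summit over local background, its −log10 p and −log10 q as the authors' caller wrote them, a score of 10 times the −log10 q, and the distance of the summit from the start of the region. Regions off chromosomes 1 to 22 and X, 0.323% to 12.5% of a deposited list, were left out.

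Summit pileup and local background were recovered from fold and p-value (tolerance 0.002) for at least 99.9% of regions in 18 lists and at most 6.03% in the other pair, for which no level is given. A level is the summit pileup over the lowest recovered background of its library. It was checked on 20000 simulated summits, of which 100% were recovered. Genes are those of GENCODE 44. The 17 motif patterns were sought in either orientation, up to 100 bases from a summit. Repeated sequence was measured from 32-base words, 1 in 16 sampled by content, counted on both strands of chromosomes 1 to 22 and X.

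The common sites and the gene lists were chosen with earlier results of these data known. Sites reported singly are, by mean rank of fold enrichment, drawn from the first 10 in all, the first 10 off promoters, up to 10 retained and 5 lost in every pair, 5 with the octamer, and those at listed genes. The snRNA genes, the sites at the promoters of SLX9 and RPS3A and the other named distal sites were chosen after their values were seen. Not all sites that this rule selects are reported here. No test between treatments was possible with 1 library per condition. Python (3.11.15), numpy (2.4.6), pandas (2.3.3), scipy (1.17.1) and matplotlib (3.10.9) were used.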

Additional observations from a re-analysis of the deposited data

Results flagged for a closer look

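NCI-H1048 and NCI-H526 cells differed in the POU2F3 antibody level at retained common sites. The median ratio of AU-15330 over DMSO was 2.24 in NCI-H1048 cells and 0.741 in NCI-H526 cells, so the 2 lines lay on opposite sides of 1. The difference between the lines was not tested, since each has 1 library per condition. In NCI-H1048 cells the background pileup was 3.04 with AU-15330 and 2.27 with DMSO, and the direction was the same for the fold enrichment of the summit (median ratio 1.59) and for the pileup not divided by the background (3.0).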

How the results depend on the processing

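Of 76 alternative values, 34 lay within the interval or spread of the value reported and 42 lay outside it. A reversal was defined only for the level ratios, as a move to the other side of 1, and 0 of these were reversed. The spread used for the level ratios is the standard deviation between sites, which is wide (0.87 for NCI-H1048 POU2F3). Alternatives that leave out sites of repeated sequence or that rescale levels were chosen after seeing the data. No paired analysis was possible because each condition is 1 library. Depth limits HA-POU2AF2 most. With −log10 q of at least 5 in each DMSO list there were 815 common sites, 82.0% of them at promoters, and with at least 50% of the region covered there were 469, with 77.8% at promoters. With a TSS within 0.5 kb the promoter share was 85.3%. Retained shares are given in the order MM1.S POU2AF1, MM1.S IRF4, NCI-H929 POU2AF1, NCI-H929 IRF4, NCI-H526 POU2F3, HA-POU2F3, HA-POU2AF2 and NCI-H1048 POU2F3. An AU-15330 list of −log10 q of at least 5 gave 82.4%, 9.70%, 85.0%, 1.87%, 28.6%, 35.1%, 2.31% and 97.2%. At least 50% of the DMSO region covered gave 76.3%, 13.5%, 82.4%, 1.352%, 25.01%, 36.6%, 1.99% and 95.7%. Sites of −log10 q of at least 5 gave 96.2%, 40.6%, 95.7%, 8.47%, 57.7%, 74.6%, 8.96% and 98.8%. Equal numbers of strongest regions gave 50%, 94.7%, 34.6%, 71.4%, 73.3%, 26.9% and 97.1% for the 7 pairs after the first, over 26 to 2515 sites. Without repeated sequence NCI-H929 IRF4 had 4.60% and HA-POU2AF2 3.71%. With the pileup not divided by the background, the level ratio was 0.37 for NCI-H526 POU2F3 and 0.25 for HA-POU2AF2. The octamer core was at 4.02% of common sites within 50 bases of the summit and at 8.87% within 200 bases.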
